A study of Mus musculus with 11 samples.

Results

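The mouse immunoglobulin heavy chain locus carries 8 constant genes, and together they decide which antibody class a B cell makes. They were taken from the deposited table of 48795 genes by the Ensembl identifier of each symbol, and all 8 were found: Ighm, Ighd, Ighg3, Ighg1, Ighg2b, Ighg2c, Ighe and Igha. Their RNA was compared between light zone (LZ) B cells of Myc WT mice (4 libraries), LZ B cells of Myc V394D mice, called Myc VD here (4 libraries), and memory B cells (MBCs) of Myc WT mice (3 libraries), 11 libraries of 8 mice in all. Every mouse was a female of 8 to 12 weeks, and spleens were taken on day 10 after an intravenous injection of sheep red blood cells (SRBC). Both cell types were sorted as B220+ cells without CD138 or IgD, after depletion of CD43+ cells on beads. The LZ gate further took Fas+ cells that lacked CD38 and were CD86High and CXCR4Low, and the MBC gate took CD38+ CD273+ cells. Myc VD mice carry, at the endogenous Myc locus, a MYC protein in which 1 amino acid is exchanged so that it no longer binds its partner MIZ1; whether 1 or both alleles were mutant is not given in the sources used here. The MBCs came from mice 1, 3 and 4 of the Myc WT LZ group, so these 2 groups share animals. Titles of Myc WT mice 1 to 3 begin with BRAC861, that of mouse 4 with BRAC1235 and those of Myc VD mice 5 to 8 with DCCT13, so genotype and title prefix cannot be told apart.

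A B cell that has not yet switched transcribes its rearranged variable region into Ighm, the gene of the IgM heavy chain, and, by longer transcription and alternative splicing, into Ighd, the gene of the IgD heavy chain. Class switch recombination deletes the DNA between switch regions and places a downstream gene behind the same variable region: one of the 4 IgG genes, Ighe for IgE or Igha for IgA. Before switching, the downstream genes are also transcribed in a germline form that encodes no antibody. Each constant gene gives a membrane form, used in the B cell receptor, and a secreted form. The values here are sums per gene, so membrane, secreted and germline RNA of a gene cannot be told apart.

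On the reference annotation (GENCODE M21, GRCm38) all 8 genes lie on the minus strand of chromosome 12, in the order in which they are given here, each with 2 annotated transcripts. Ighm, the gene next to the joining segments, is at chr12:113418558-113422730 and Igha, the last, at chr12:113254830-113260236. Ighd is at chr12:113406604-113416324, Ighg3 at chr12:113356224-113361232, Ighg1 at chr12:113325240-113330523, Ighg2b at chr12:113302965-113307933, Ighg2c at chr12:113285325-113288932 and Ighe at chr12:113269260-113273248. The first 90 coding bases of the first constant exon (CH1) are printed for Ighm and Igha, whose shares of the RNA moved up in MBCs, and for the 4 IgG genes, whose likeness bears on how reads are divided between them. They are read 5′ to 3′ along the RNA, and capitals mark bases that no other of the 8 genes has at the aligned position.
Ighm, chr12:113422641-113422730: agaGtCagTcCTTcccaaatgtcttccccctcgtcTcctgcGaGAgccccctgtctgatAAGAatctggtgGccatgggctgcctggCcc
Ighg3, chr12:113361143-113361232: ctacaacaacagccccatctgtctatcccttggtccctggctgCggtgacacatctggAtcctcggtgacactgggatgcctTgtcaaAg
Ighg1, chr12:113330434-113330523: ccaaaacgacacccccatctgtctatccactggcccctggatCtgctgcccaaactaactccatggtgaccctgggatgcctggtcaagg
Ighg2b, chr12:113307844-113307933: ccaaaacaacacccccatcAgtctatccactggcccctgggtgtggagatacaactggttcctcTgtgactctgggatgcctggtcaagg
Ighg2c, chr12:113288843-113288932: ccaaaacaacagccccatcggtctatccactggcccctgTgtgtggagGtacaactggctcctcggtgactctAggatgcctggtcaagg
Igha, chr12:113260147-113260236: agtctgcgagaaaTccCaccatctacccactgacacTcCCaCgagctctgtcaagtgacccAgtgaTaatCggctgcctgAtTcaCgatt

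Ighm has 16 such bases of its own in this stretch and Igha 12, against 4 in Ighg3, 3 in Ighg2c, 2 in Ighg2b and 1 in Ighg1. Over the whole coding sequence Ighg2b and Ighg2c were 85.6% identical, whereas the other IgG pairs were 73.9% to 75.5% identical and Ighm and Igha 45.1%. Of all stretches of 50 bases in the transcripts of Ighg2c, 5.49% were shared with Ighg2b, and of those of Ighg2b 4.15% were shared with another gene. The share was 1.58% for Ighg3 and 0.393% for Ighg1, while Ighm, Ighd, Ighe and Igha shared none. No stretch of 100 bases of any of the 8 was found in another gene. A short read in the shared stretches cannot be given to 1 gene by its sequence, so the values of Ighg2b and Ighg2c carry that uncertainty more than the other 6.

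The libraries themselves differed in ways that touch every value. Values are TPM (transcript abundances), in which a gene's estimated reads are divided by its length and each library is scaled to the same total, so sequencing depth is unknown. Between 11527 and 19537 genes were above 0 TPM, with the 3 MBC libraries at 11527 to 16040. Ribosomal RNA genes took 35.7% to 44.5% of the total in Myc WT LZ, 44.1% to 61.3% in Myc VD LZ and 36.1% to 37.5% in MBC libraries. The labels of the cells were checked against marker genes. Summed TPM of 9 germinal center genes (such as Bcl6 and Mef2b) were 1435 to 1709 in Myc WT LZ, 1273 to 1730 in Myc VD LZ and 343 to 465 in MBC libraries, and those of 6 memory genes (such as Cd38, Ccr6 and Pdcd1lg2) were 38.1 to 44.3, 19.2 to 48.7 and 436 to 614. Those of 4 light zone genes were 425 to 629, 352 to 445 and 383 to 539 in the same order, and all 3 groups overlapped. Cd38 and Pdcd1lg2 encode CD38 and CD273, by which the MBCs were sorted. In MBCs 5 of the 6 memory genes had a positive log2 difference from Myc WT LZ. The other, Nt5e, was at 6.80 to 11.5 TPM, against 10.8 to 13.4 TPM in Myc WT LZ libraries. Among the MBC libraries, that of mouse 3 had 6713 TPM of 6 erythroid genes (such as hemoglobins and Alas2) where the other MBC libraries had 7.60 and 53.4. In Myc VD LZ mice 5 to 8 the 6 erythroid genes summed to 343, 410, 352 and 71.9 TPM, against 116 to 226 in Myc WT LZ libraries, and their median log2 difference was 1.19, with none called, where that of all genes was -0.31. Its part in the Myc VD values was not tested. The MBC library of mouse 4 had 30.5 TPM of 8 T cell genes against 0.190 and 0.800. The 8 myeloid genes listed summed to 155 to 330 TPM in MBC libraries and to 59.7 to 98.2 in Myc WT LZ libraries.

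In LZ B cells of Myc WT mice the heavy chain RNA was made up mostly of Ighg1 and Ighm. Ighg1, the gene of IgG1, was at 1450, 1151, 1637 and 972 TPM in mice 1 to 4 (mean 1303 ± 298, SD, n = 4), and Ighm was at 1133, 1211, 1311 and 999.3 TPM (mean 1164 ± 132). Ighg1 had the higher TPM of the pair in mice 1 and 3, Ighm in mice 2 and 4, so their order did not hold within the group. Ighg2b followed at 199 ± 45.6 TPM, Ighg3 at 76.1 ± 17.5, Ighg2c at 30.1 ± 13.4, Ighd at 24.6 ± 5.65, Ighe at 7.74 ± 4.18 and Igha at 5.59 ± 2.93 TPM. The ranges of Ighg2b and Ighg3 each stood clear of their neighbours in this order, whereas those of Ighg2c and Ighd overlapped, as did those of Ighe and Igha. Without the ribosomal RNA genes, Ighg1 ranked 38th to 77th and Ighm 61st to 71st of all genes by TPM, and Igha 7502nd to 10298th.

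**Figure D1:**
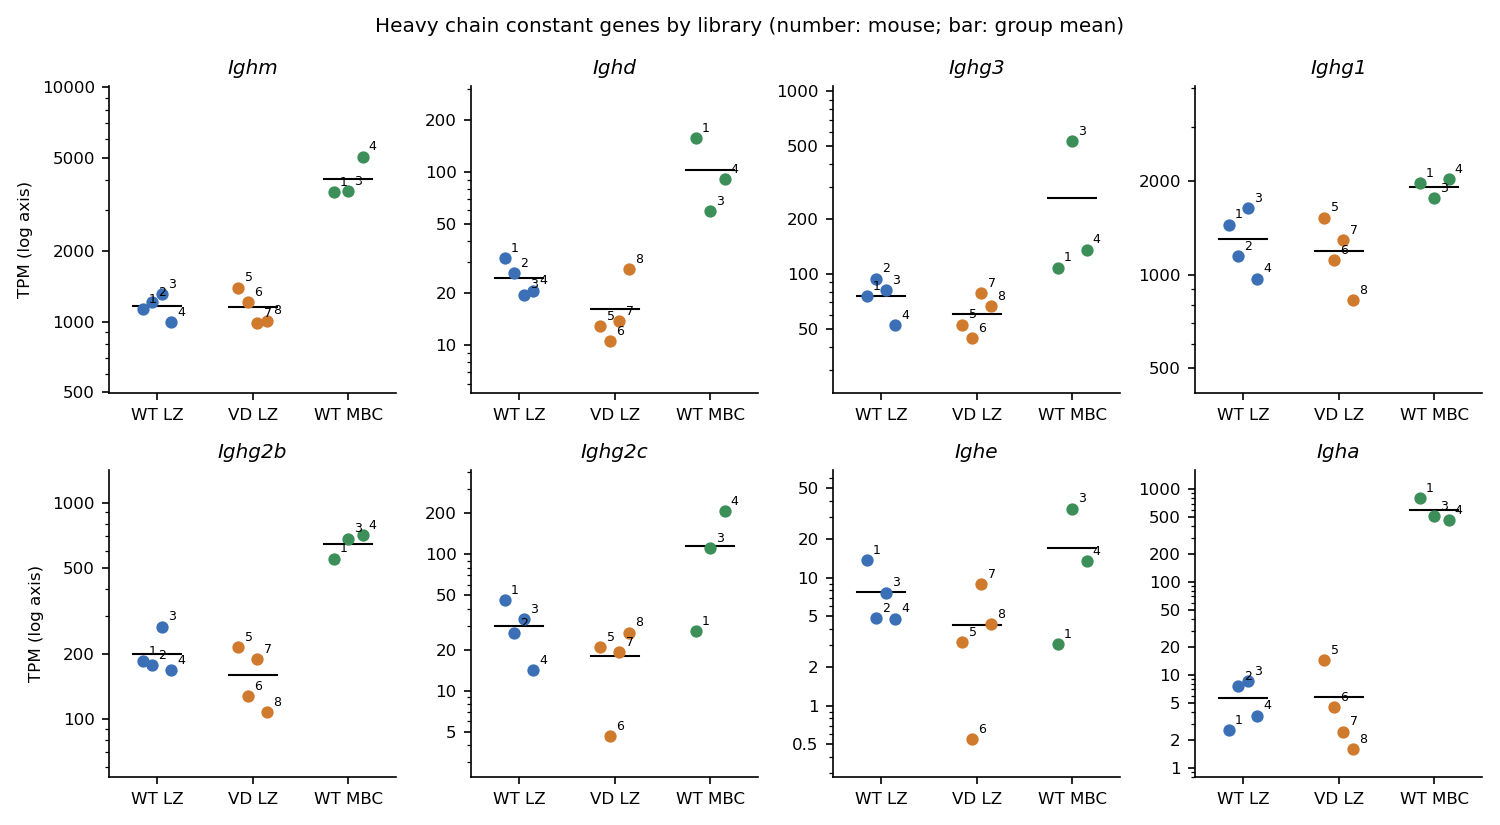
TPM of the 8 heavy chain constant genes in each of the 11 libraries, on log axes with a scale of their own for each gene. Points are libraries numbered by mouse and bars are group means, with LZ the light zone and MBC the memory B cells. The 3 MBC points lie above all 4 Myc WT LZ points for 6 genes, and the 2 LZ groups overlap for all 8.

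MBCs differed most from LZ B cells of the same strain at Igha, the gene of IgA. Igha was at 2.56, 7.59, 8.56 and 3.65 TPM in the Myc WT LZ libraries of mice 1 to 4 and at 803, 516 and 465 TPM in the MBC libraries of mice 1, 3 and 4. No MBC library came near the LZ range, and the gene moved from among the low genes of the library to rank 77 to 206. The log2 difference was 6.57 ± 0.42 (SE, adjusted p = 0.00027, limma), the largest rise among 13245 genes tested. Within the same animal, MBCs had 314 times the TPM of LZ B cells in mouse 1, 60.3 times in mouse 3 and 127 times in mouse 4. In such bulk RNA, more cells of a class and more RNA per cell cannot be told apart.

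IgA is also the class of many plasma cells, so genes of that cell type were set beside it. Summed TPM of 9 plasma cell genes were 396, 236 and 554.98 in the MBC libraries of mice 1, 3 and 4 and 480 to 711 in Myc WT LZ libraries, and 2 of the 7 tested were called lower in MBCs (Mzb1 and Slpi) and none higher, where 5.04% of all genes were called lower and 4.17% higher. The call of Mzb1 was lost in 10 of 18 alternatives. Tnfrsf17, which encodes the survival receptor BCMA of plasma cells, was at 0 in all 11 libraries, and Sdc1, which encodes CD138, the molecule gated out in the sort, was at 0, 0 and 5.4 TPM in MBCs of mice 1, 3 and 4. Jchain, which encodes the chain that joins IgA and IgM molecules, was at 129, 92.2 and 270 TPM in MBCs and at 152 to 280 TPM in LZ libraries, and the ranges overlapped. Other members were highest in the MBC library of mouse 1, which had the highest Igha, and stood there above the LZ range. These were Prdm1, a regulator of plasma cell fate, at 18.2 TPM (LZ 2.76 to 3.87), Derl3, of the endoplasmic reticulum, at 36.1 TPM (LZ 9.01 to 20.4) and Xbp1, a regulator of secretion, at 106 TPM (LZ 54.8 to 73.6). Irf4, also a regulator of plasma cell fate, was at 54.5, 17.8 and 59.8 TPM in MBCs of mice 1, 3 and 4 and at 19.7 to 27.1 TPM in LZ libraries. The part of plasma cells or their precursors in the Igha values was not tested.

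Ighm was also higher in MBCs, at 3575, 3591 and 5053 TPM in mice 1, 3 and 4 against 999.3 to 1311 TPM in LZ libraries. Its log2 difference was 1.79 ± 0.18 (adjusted p = 0.00181, limma), and MBCs had 3.16, 2.74 and 5.06 times the LZ value within mice 1, 3 and 4. Ighm ranked 6th to 9th of all genes outside the ribosomal RNA in MBC libraries. Ighd, which shares its primary transcript with Ighm, was at 156, 59.3 and 90.6 TPM in MBCs and at 31.9, 26.2, 19.6 and 20.7 TPM in LZ libraries, so its groups did not overlap either. Its log2 difference was 1.93 ± 0.38 (adjusted p = 0.0177, limma), a call that was lost without the LZ library of mouse 2, 3 or 4 (adjusted p = 0.0596, 0.0648 and 0.0555). The fit blocked on the mouse leaves out the LZ library of mouse 2, because that mouse has no MBC library. There the log2 difference of Ighd was 1.96 ± 0.45 (adjusted p = 0.059, limma), and the omission with no block had already lost the call, as given above. IgD on the surface was used to gate both cell types, so the Ighd values are those of cells sorted to lack the protein.

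Both unswitched genes are also the heavy chain genes of naive B cells. Summed TPM of 7 naive follicular B cell genes, Ighd itself among them, were 1225 to 1249 in MBC libraries and 375 to 383 in Myc WT LZ libraries. Of these, Ccr7, which encodes a chemokine receptor of recirculating lymphocytes, was at 18.8 to 33.0 TPM in MBCs and at 0.310 to 1.37 TPM in LZ libraries. All 7 had a positive log2 difference with a median of 3.85, beside -0.14 for all genes, and 6 were called higher, where 4.17% of all genes were. In bulk RNA, these genes in naive cells and in MBCs themselves cannot be told apart. The part of naive cells in the Ighm and Ighd values was not tested.

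Among the IgG genes Ighg2b, which encodes IgG2b, was called higher in MBCs. It was at 550, 681 and 708 TPM in mice 1, 3 and 4 against 184, 177, 267 and 167 TPM in LZ libraries, with no overlap, and the log2 difference was 1.71 ± 0.22 (adjusted p = 0.00395, limma). Ighg1 was at 1972, 1769 and 2029 TPM in MBCs, above all LZ libraries, but its log2 difference of 0.59 ± 0.21 did not pass (adjusted p = 0.106). Within mice, MBCs had 1.36, 1.08 and 2.09 times the LZ TPM of Ighg1, the smallest ratios of the 4 IgG genes in mice 3 and 4. Ighg3, which encodes IgG3, was at 108, 534 and 136 TPM in MBCs and at 52.6 to 94.5 TPM in LZ libraries. The log2 difference was 1.41 ± 0.51 (adjusted p = 0.12, limma) and fell to 0.70 without the MBC library of mouse 3. Ighg2c, the gene of the IgG2c of C57BL/6 mice, was at 27.2, 111 and 207 TPM in MBCs and at 14.1 to 46.3 TPM in LZ libraries. The MBC library of mouse 1 lay within the LZ range, and the difference was 1.603 ± 0.66 (adjusted p = 0.159), but 2.42 with adjusted p = 0.0274 without it and 0.97 with adjusted p = 0.326 without the MBC library of mouse 4.

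Ighe, the gene of IgE, was near the level of Igha in LZ libraries and did not follow it. It was at 3.04, 34.8 and 13.5 TPM in MBCs of mice 1, 3 and 4 and at 4.80 to 13.7 TPM in LZ libraries. The ranges overlapped and the log2 difference was 0.66 ± 0.74 (adjusted p = 0.606, limma). Within mice it was 0.222, 4.54 and 2.82 times the LZ value, and without the MBC library of mouse 3 the difference was -0.08. That library had the highest Ighg3 and Ighe of all 11 and also the erythroid RNA given above. Whether these go together was not tested.

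Counted over the 8 genes, all had a higher mean in MBCs, and 4 were called higher by limma (Igha, Ighd, Ighm and Ighg2b), where 4.17% of all genes tested were called higher. None of the 8 was called lower, where 5.04% of all genes were, and 7 had an unadjusted p under 0.05 for a rise, where 11.3% of all genes did. The MBC and LZ values did not overlap, with MBCs higher, for 6 of the 8 (all but Ighg2c and Ighe), where this held for 11.8% of all genes tested. In the 5 libraries with the title prefix BRAC861 alone, the log2 differences were 6.60 for Igha, 1.56 for Ighm and 1.57 for Ighg2b (adjusted p = 0.011, 0.0121 and 0.0254, limma), all still called, and 1.88 for Ighd (adjusted p = 0.0672). The median log2 difference of the 8 was 1.66, that of all genes -0.14. All 8 are products of 1 locus and share their upstream promoter once switched, so they are not independent of each other.

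**Figure D2:**
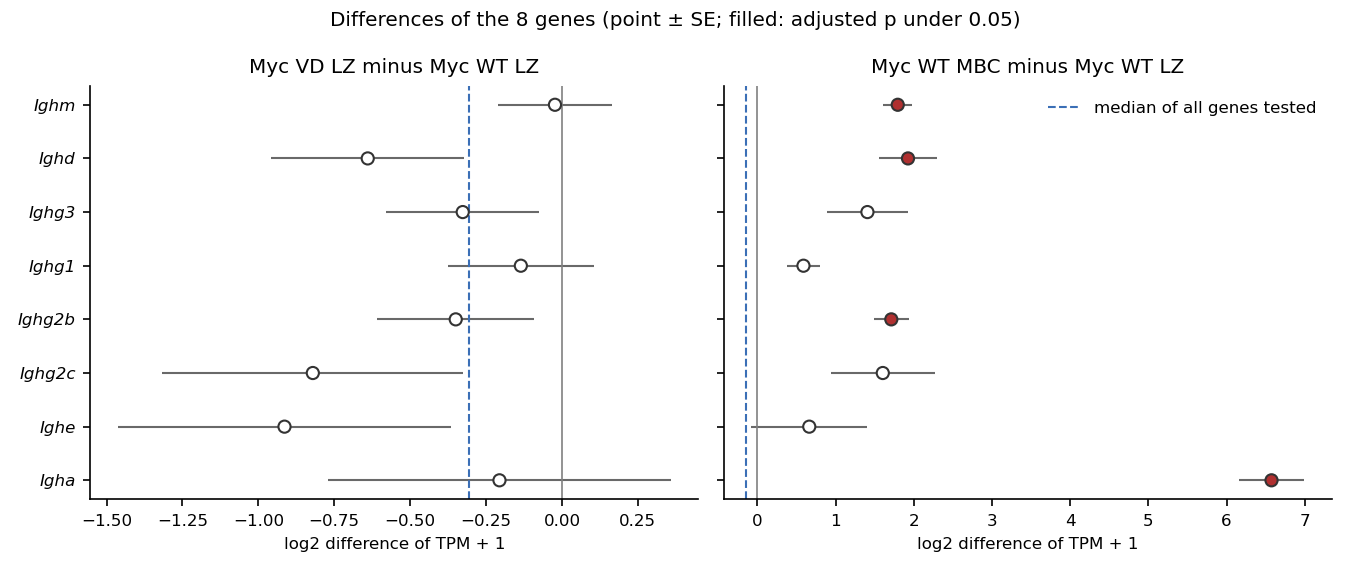
Log2 differences of TPM + 1 of the 8 genes, with SE, for Myc VD LZ minus Myc WT LZ on the left and Myc WT MBC minus Myc WT LZ on the right, on separate scales. Filled points have an adjusted p under 0.05 (limma) and the dashed line is the median of all genes tested. The filled points are Ighm, Ighd, Ighg2b and Igha on the right, and no point is filled on the left.

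Since the 8 genes rose by different amounts, each was also taken as a share of their summed TPM, a measure that does not move with what other RNA takes of a library. The sum was 2235 to 3366 TPM in Myc WT LZ and 7195 to 8702 TPM in MBC libraries. Ighg1 took 49.4%, 42.6%, 48.6% and 43.5% of it in LZ libraries of mice 1 to 4 and 27.4%, 24.2% and 23.3% in MBC libraries of mice 1, 3 and 4. The share was thus lower in every MBC library although the TPM of Ighg1 was higher, with a difference of -21.1 percentage points (p = 0.0286, exact permutation test, two-sided). Ighm took 38.6% to 44.9% in LZ and 49.2% to 58.1% in MBC libraries, a difference of 10.5 points (p = 0.0286, exact permutation test). Igha took 0.0872% to 0.281% in LZ libraries and 11.2%, 7.07% and 5.34% in MBC libraries, a difference of 7.66 points (p = 0.0286, exact permutation test). This p is the smallest that the 35 groupings of 4 and 3 libraries can give, it was not adjusted over the 8 genes, and taken as the doubled tail of 1 side it would be 0.0571.

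**Figure D3:**
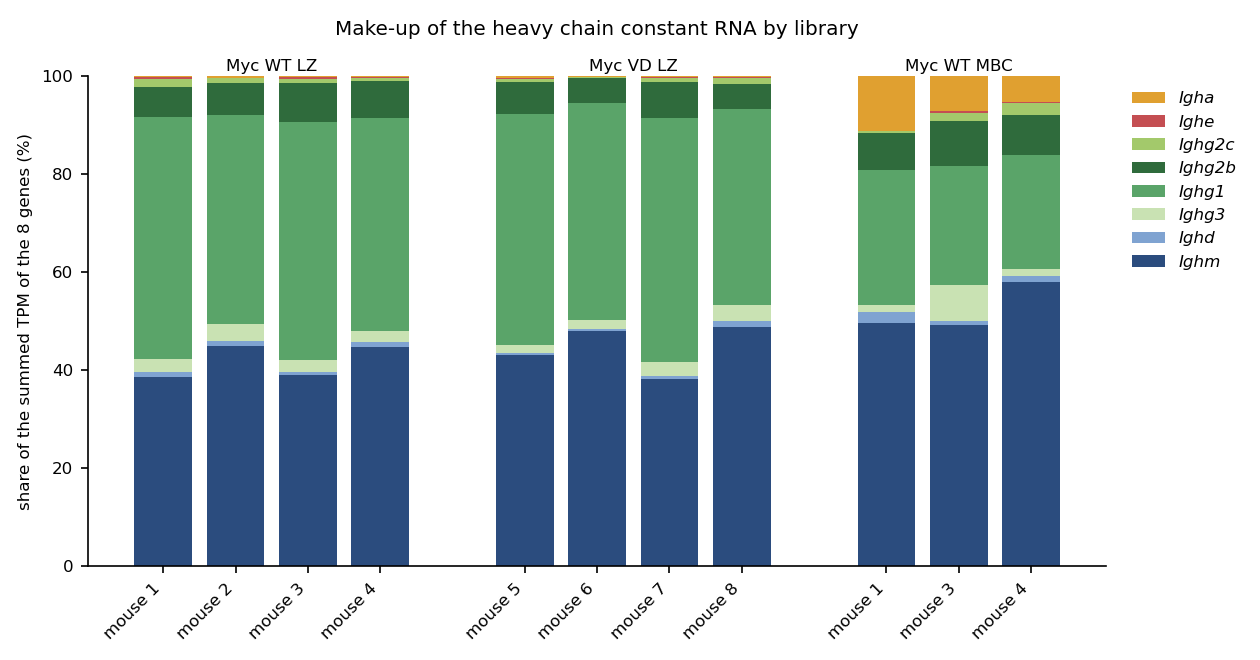
Share of each gene in the summed TPM of the 8 heavy chain constant genes, in percent, 1 bar per library, stacked in the order of the genes on the chromosome from Ighm at the bottom to Igha at the top. Ighg1 takes 42.6% to 49.4% in the Myc WT LZ bars and 23.3% to 27.4% in the MBC bars, where Igha takes 5.34% to 11.2%.

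The other 5 shares gave no difference that this test could tell from the spread between libraries. Ighg2b took 7.06% ± 0.77 in LZ (n = 4) and 8.37% ± 0.87 in MBC libraries (n = 3), with p = 0.114 by the exact permutation test. Among the switched genes alone, that is without Ighm and Ighd, the difference of Ighg2b was 5.80 points and its p 0.0286 by the same exact permutation test. The mean share of Ighg3 moved from 2.71% to 3.46%, that of Ighg2c from 1.05% to 1.43%, that of Ighd from 0.89% to 1.34% and that of Ighe from 0.272% to 0.225%. The sign for Ighg3 rested on the MBC library of mouse 3, since its share changed by -1.07, 4.89 and -0.79 points within mice 1, 3 and 4. The difference of Ighd, 0.45 points, was 0.0363 points without the MBC library of mouse 1. Within the 3 mice that gave both cell types, the share of Ighg1 changed by -21.96, -24.4 and -20.2 points, and Ighm gained 11.1, 10.3 and 13.4 points. Igha gained 11.1, 6.82 and 5.18 points in mice 1, 3 and 4.

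Sums over classes show the same data from another side, and are given with no test. The 6 switched genes together made up 54.2% to 60.5% of the heavy chain RNA in Myc WT LZ libraries and 40.9% to 49.97% in MBC libraries. Igha was 0.144% to 0.519% of the switched RNA in LZ and 13.1% to 23.2% in MBCs. Ighg1 was 79.4% to 82.6% of the RNA of the 4 IgG genes in LZ and 57.2% to 74.2% in MBCs. The ratio of Ighg1 to Ighm ran from 0.950 to 1.28 in LZ and from 0.401 to 0.551 in MBC libraries. The summed heavy chain TPM was 0.469 to 0.510 of the summed light chain constant TPM (Igkc, Iglc1, Iglc2 and Iglc3) in LZ and 0.600 to 0.797 in MBC libraries.

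The MBC libraries were not alike in class. That of mouse 1 had the highest Igha and Ighd and the lowest Ighg3, Ighg2c and Ighe of the 3. That of mouse 3 had the highest Ighg3, at 7.32% of the heavy chain RNA against 1.504% and 1.56%, and that of mouse 4 the highest Ighm, Ighg1, Ighg2b and Ighg2c. The SD of Ighg3, at 238 TPM around a mean of 259 TPM, was thus near the mean itself, whereas that of Ighg1 was 136 TPM around 1923 TPM.

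In LZ B cells the exchange in MYC was compared with Myc WT for the same 8 genes. Ighg1 was at 1529, 1115, 1290 and 830 TPM in Myc VD mice 5 to 8 (mean 1191 ± 294, n = 4) and Ighm at 1396, 1209, 990 and 1010 TPM (mean 1151 ± 191). Both ranges lay across those of Myc WT. Igha was at 14.5, 4.54, 2.46 and 1.58 TPM, where mouse 5 stood above all Myc WT LZ libraries and mice 7 and 8 below them, so the MBC level of Igha was seen in no LZ library of either genotype. Ighd was at 12.9, 10.5, 13.78 and 27.4 TPM, with mice 5 to 7 below every Myc WT library and mouse 8 within their range. Ighe was at 3.12, 0.55, 8.97 and 4.35 TPM, and Ighg2c at 20.9, 4.65, 19.3 and 26.6 TPM, both lowest in mouse 6. Ighg3 was at 44.4 to 78.5 TPM and Ighg2b at 107 to 214 TPM.

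None of the 8 genes was called by limma, where 0.0466% of 12869 genes were called in either direction. None had an unadjusted p under 0.05, where 16.9% of all genes did, and for none were the groups free of overlap in TPM, where this held for 9.98%. By rank among genes outside the ribosomal RNA, Ighm was at 29 to 60 in Myc VD and 61 to 71 in Myc WT LZ libraries. These ranks did not overlap, whereas those of the other members did, and how many of all genes stood apart by rank was not counted. The differences reached from -0.02 ± 0.19 for Ighm (adjusted p = 0.965) to -0.91 ± 0.55 for Ighe (adjusted p = 0.422), and that of Ighd was -0.64 ± 0.32 (adjusted p = 0.334). Without single libraries the difference of Ighe was -1.32 to -0.42 and that of Ighg2c -1.13 to -0.31, both nearest to 0 without Myc VD mouse 6. All 8 were below 0 but so were 73.7% of all genes, whose median was -0.31. Taken relative to that median, Ighm was at 0.28, Ighg1 at 0.17 and Igha at 0.10, Ighg3 was at -0.02 and Ighg2b at -0.04, and Ighd was at -0.33, Ighg2c at -0.51 and Ighe at -0.61. After scaling by the median ratio, which brought the median of all genes to -0.01, the differences of Ighm, Ighg1, Igha and Ighg3 were above 0, so no direction is given for them. The SEs ran from 0.19 to 0.56 on the log2 scale, and p-values that miss the threshold do not show that the genotypes are alike.

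The make-up of the heavy chain RNA was compared in the same way. Ighm took 38.2% to 48.7% in Myc VD LZ libraries and Ighg1 40.0% to 49.8%, and the differences from Myc WT were 2.72 points for Ighm and -0.72 points for Ighg1 (p = 0.4 and 0.8, exact permutation test, 70 groupings). Ighg2b had the smallest p, with 6.03% ± 1.11 in Myc VD and 7.06% ± 0.77 in Myc WT (p = 0.2, exact permutation test, n = 4 in each). The switched genes together made up 49.96% to 61.3% in Myc VD libraries. Both comparisons use the same 4 Myc WT LZ libraries.

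Genes that act on heavy chain RNA or on switching were read from lists by role. Of 6 light chain constant genes and receptor signal subunits, 3 were called higher in MBCs (Igkc, Iglc1 and Cd79a) and none lower, with a median log2 difference of 0.84. Among all genes tested, 4.17% were called higher and 5.04% lower, with a median of -0.14, and the counts of the lists stand beside these shares. Igkc, the kappa light chain gene, was at 10497, 7120 and 10550 TPM in MBCs and 3820 to 5513 TPM in LZ libraries (0.97 ± 0.20, adjusted p = 0.0209, limma), Iglc1 differed by 1.16 ± 0.22 and Cd79a, which encodes a signal chain of the B cell receptor, by 0.83 ± 0.22. The light chain genes thus differed by less than Ighm, though this contrast was not tested.

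Of 8 genes of heavy chain RNA processing and secretion 7 were tested, and Zfp318 was called higher and Mzb1 lower. Zfp318, whose protein lets transcription pass from Ighm into Ighd, was at 92.2, 123 and 62.5 TPM in MBCs of mice 1, 3 and 4 and at 8.10, 4.42, 4.99 and 7.48 TPM in LZ libraries (3.67 ± 0.38, adjusted p = 0.00181, limma). MBCs thus had both more Zfp318 and more Ighd RNA, but Ighd as a percentage of Ighm was 4.37, 1.65 and 1.79 in MBCs and 1.49 to 2.81 in LZ libraries, and the ranges overlapped. The MBC library with the highest Zfp318, that of mouse 3, had the lowest Ighd. Mzb1, a helper of IgM assembly in the endoplasmic reticulum, was at 36.6, 27.7 and 125 TPM in MBCs and at 135 to 243 TPM in LZ libraries (-1.88 ± 0.49, adjusted p = 0.0462, limma). Ell2, which favours the secreted form, was at 33.7 ± 10.2 TPM (n = 3) and 46.9 ± 7.53 TPM (n = 4) and did not pass.

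Of 27 class switch recombination enzymes all were tested, 4 were called lower in MBCs (5.04% of all genes) and none higher (4.17% of all genes), with a median of -0.85 beside -0.14 for all genes. H2afx, the gene of the histone variant that marks DNA breaks, was at 16.1 to 58.7 TPM in MBCs against 342 to 708 TPM in LZ libraries (-3.88 ± 0.45, adjusted p = 0.00251, limma). Hmces, whose protein protects abasic sites, differed by -3.41 ± 0.78 and Msh6, a mismatch repair gene, by -1.55 ± 0.31. H2afx is also a gene of cycling germinal center cells, and the germinal center genes as a whole were lower in MBCs, as given above.

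Of 20 genes for signals that direct switching 19 were tested, with 5 called higher in MBCs (4.17% of all genes), none lower (5.04% of all genes) and a median of 0.96 beside -0.14 for all genes. Runx3, a transcription factor that acts with SMAD proteins at the Igha germline promoter, was at 48.5, 55.6 and 22.8 TPM in MBCs and at 3.37 to 7.60 TPM in LZ libraries (2.71 ± 0.46, adjusted p = 0.0104, limma). Tgfbr2, a receptor for the IgA-directing cytokine TGF-beta, was at 72.6 to 81.6 TPM against 31.0 to 41.0 TPM (1.12 ± 0.25, adjusted p = 0.03). Stat6, the transducer of IL-4 signals towards IgG1 and IgE, differed by 1.51 ± 0.37, and Ifngr1, of the interferon-gamma path towards IgG2c, by 1.02 ± 0.25. Smad3, Tgfbr1 and Il4ra did not pass. Of 12 transcription factors of the heavy chain locus, none was called in either direction, and of 7 receptors for the constant part of antibodies 6 were tested and 2 called higher, Fcer2a for IgE (1.36 ± 0.17, adjusted p = 0.0037) and Fcmr for IgM (1.24 ± 0.23, adjusted p = 0.0137).

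The replicate block, fitted without the LZ library of mouse 2, left 4 of these 16 called genes with an adjusted p under 0.05, Zfp318, H2afx and Hmces among them. Of the 16, 3 kept the call under all 18 alternatives run, Zfp318 and H2afx among them, whereas Hmces lost it in 7 of the 18. Leaving out that library with no block left 5 of the 16. Blocked adjusted p-values (limma) of others, which lost the call, were 0.119 for Igkc, 0.0828 for Iglc1, 0.211 for Cd79a, 0.102 for Mzb1, 0.142 for Msh6, 0.129 for Stat6, 0.269 for Ifngr1, 0.255 for Tgfbr2, 0.077 for Runx3, 0.057 for Fcer2a and 0.0808 for Fcmr. In Myc VD LZ cells no gene of the 6 lists was called, in a comparison that called 0.0466% of all genes.

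**Figure D4:**
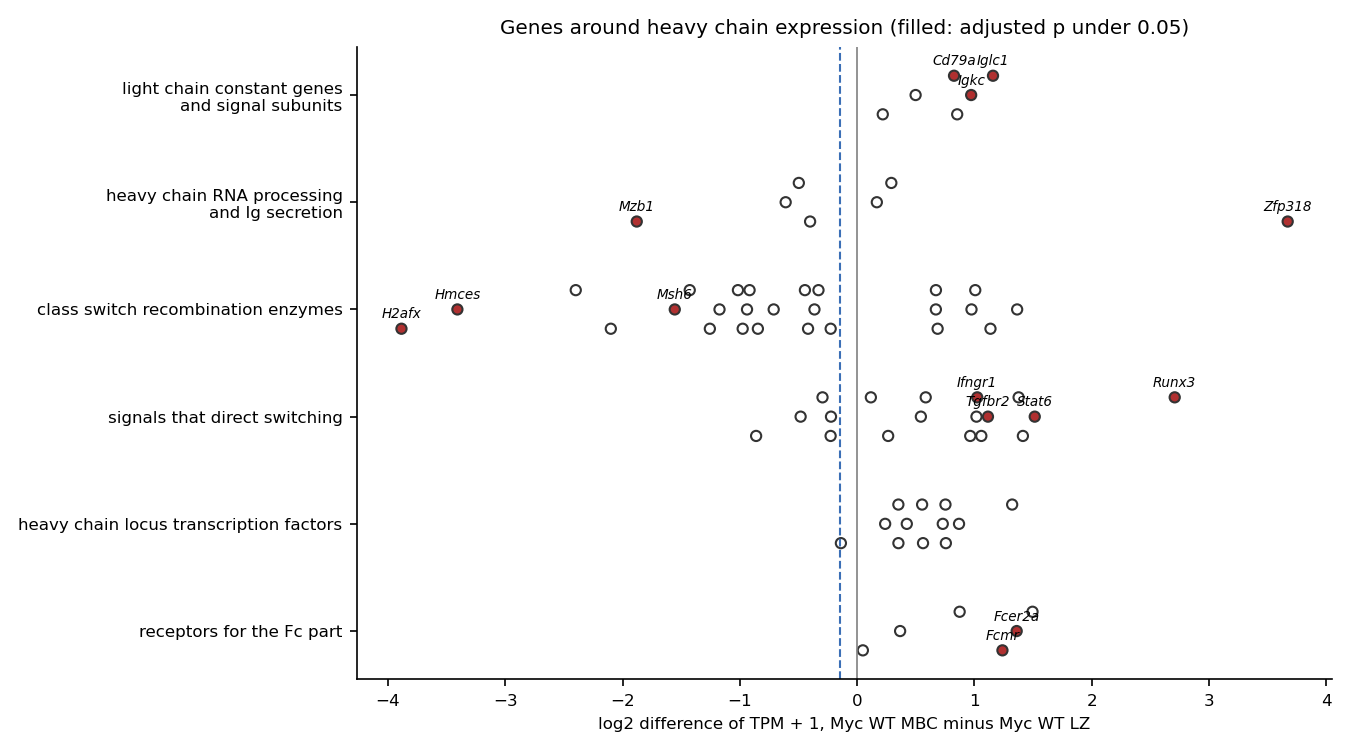
Log2 differences of TPM + 1 between Myc WT MBC and Myc WT LZ libraries for tested genes of 6 lists, 1 row of points per list, spread vertically only for legibility. Filled, named points have an adjusted p under 0.05 (limma), and the dashed line is the median of all genes. Class switch recombination enzymes have filled points on the left side alone, from Msh6 to H2afx, and switching signals on the right side alone.

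The genes whose levels ran most like each member over the 11 libraries were read off by Pearson's r of log2(TPM + 1) among 7930 genes above 0 in every library, as a description. For Igha they were Gpr55 (r = 0.99), C130026I21Rik (0.98) and Dnase1l3 (0.98), and Gpr55, which encodes a lipid receptor, had a mean of 19.5 TPM in MBCs and 1.70 and 1.99 TPM in Myc WT and Myc VD LZ cells. For Ighm they were Anxa6 (0.98), Igha itself (0.98) and Asxl2 (0.97), and Anxa6, which encodes an annexin, was at 157, 9.12 and 9.92 TPM in the same groups. For Ighg1 they were H2-Ab1 (0.95), Msn (0.94) and Lcp1 (0.94), genes of an MHC class II chain and of proteins of the actin cortex. For Ighg2b they were Sun2, B4galt1 and Myl12b (0.98 each), for Ighd Fam214a (0.97), Ctu2 (0.96) and Vps13d (0.96), and for Ighg3 Cds2 (0.97), Zbtb26 (0.96) and Lrp10 (0.96). Ighg2c had Abcg1 (0.95), Chm (0.94) and Nol8 (0.93), and Ighe had Acbd5 (0.94), Patz1 (0.93) and Fam98c (0.92). Since MBC and LZ libraries form separate sets for most of these genes, a high r here mainly restates the MBC to LZ difference.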

How the data were processed

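RNA of sorted spleen B cells was measured in 11 libraries (Nugen cDNA kit, Illumina HiSeq). Per the labels and the paper's methods, the authors aligned reads with STAR 2.5.2a, quantified Ensembl genes on GRCm38 with RSEM 1.3.0 in a strand-specific setting, and deposited TPM with 2 decimals in 1 table. The annotation release is not given in the sources used here. The labels give 50000000000 SRBC per mouse and the paper's methods a smaller number. TPM keep no depth, so precision comes from the spread between mice alone, and a listed 0 can be a failed estimate.

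Coordinates, transcript lengths and sequences came from GENCODE M21 (GRCm38), which names 48349 of the genes and lacks 446. Sequences were aligned with MAFFT 7.526. For log2(TPM + 1) of genes whose average over the 2 groups reached 1 TPM, differences were fitted in R 4.3.3 by lmFit and trended eBayes of limma 3.58.1, two-sided, with Benjamini-Hochberg adjustment over all genes and a threshold of 0.05. Fold changes on this scale understate those of low genes. The study tested counts with DESeq2, which TPM do not allow. Shares of the summed TPM were compared by an exact permutation test on the absolute difference of means, two-sided (scipy 1.17.1, numpy 2.4.6, pandas 2.3.3, Python 3.11.15). The fit was tested on simulated data. Alternatives were another pseudocount, filter or scaling, removal of ribosomal RNA or of variable, diversity and joining genes, no trend, a joint fit of the 3 groups, blocking by mouse, 1 title prefix, shares of reads or by medians, and each library left out in turn.

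The genes named are the 8 constant genes, the called genes of 6 lists by role, and per constant gene the 3 with the highest r among genes averaging 5 TPM or more. Some genes of the lists count in the numbers given but are not reported here. Genes and lists were chosen with earlier results of these data known. MBC and LZ libraries of mice 1, 3 and 4 are paired by animal, per their titles, and r across genes between the residuals of each pair was 0.00507, 0.0115 and -0.047. Follicular B cells and ChIP-seq of the study were not analysed here.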

Additional observations from a re-analysis of the deposited data

Results flagged for a closer look

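Of 32 sets of 4 libraries (TPM and share of each of the 8 genes in Myc WT and in Myc VD LZ cells) 2 held a library whose gap to the next, divided by the range of the set, was over the critical value of Dixon's test. Chance alone gives about 1 such set in 20. Ighd took 1.32% of the heavy chain RNA in Myc VD mouse 8 and 0.399% to 0.532% in the other Myc VD mice. Ighe took 0.466% in the LZ library of Myc WT mouse 1 and 0.179% to 0.228% in the others. Mouse 8 also had the highest ribosomal RNA content of all libraries (61.3%), whose part in this was not tested. Groups of 3 libraries were not examined in this way.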

How the results depend on the processing

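Igha, Ighm and Ighg2b kept their calls in MBCs under all 18 alternatives run, and Ighd in 13 of them. Between 3 and 5 of the 8 genes were called when single libraries were left out. The number of all genes called moved more. In MBCs it was 1219, but 608 with no filter on low values, 248 in the fit with the replicate block on the mouse (it also leaves out the LZ library of mouse 2, a step that alone gave 342), and 342 to 2754 without single libraries (lowest without the LZ library of mouse 2, highest without the MBC library of mouse 4). In Myc VD it was 6, but 0 with a pseudocount of 0.1, with no filter, with scaling by the median ratio or with all 3 groups in 1 fit, 1 with ribosomal RNA genes removed, 15 with a filter at a mean of 5 TPM, and 0 to 254 without single libraries (highest without mouse 5). The cause was not tested.

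Directions in Myc VD turned for Ighm (0.32 by the median ratio, 0.36 by quantile normalization, 0.29 with ribosomal RNA genes removed, -0.12 to 0.0447 without single libraries), for Ighg1 (0.21, 0.27 and 0.18 in the same order, -0.27 to 0.0265), for Igha (0.0599, 0.0182 and 0.0192, -0.73 to 0.14) and for Ighg3 (0.0143 by the median ratio). In MBCs the difference of Ighe was -0.0786 to 1.49 without single libraries. Of the 3 shares called in MBCs, 0 passed with the difference of medians and 0 with the doubled tail of 1 side, an alternative chosen after seeing the data. With so few libraries neither of these alternatives can pass, so the 2 counts do not bear on how firm the shares are. By medians the share of Ighg3 in MBCs differed by -0.94 points and that of Igha in Myc VD by -0.0711 points. Among the switched genes the share of Ighg1 in Myc VD differed by 2.42 points and that of Ighe in MBCs by 0.00589 points. In MBCs, with 3 pairs or with a library left out, the exact test of a share cannot pass, so these are values only, and none of them moved by more than the SD of the group with the larger spread, which was the MBCs for every gene but Ighg1. Without single libraries the differences of 3 shares took both signs in MBCs, from -1.18 (without MBC mouse 3) to 1.73 points for Ighg3, from -0.0920 to 0.908 for Ighg2c and from -0.173 to 0.0445 for Ighe. In Myc VD the test can pass with a library left out, and no share did (0 of 8 members under each omission); the share differences of Ighg1 and Igha changed sign there, with ranges of -2.21 to 1.04 and -0.0793 to 0.0447 percentage points. TPM hold no depth, which limits what can be said of Ighe and of Igha in LZ cells.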

Other observations

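Jchain and Mzb1, picked here after their values were seen, were below Myc WT in every Myc VD LZ library. Jchain was at 144, 121, 106 and 67.1 TPM in mice 5 to 8 and at 152 to 280 TPM in Myc WT, and Mzb1 was at 111, 74.2, 71.0 and 58.9 TPM against 135 to 243 TPM. Neither passed over all genes (differences of -1.09 ± 0.28 and -1.28 ± 0.25, adjusted p = 0.122 and 0.0805, limma), and the groups did not overlap for either, as for 9.98% of all genes, whose median difference was -0.31. The 7 tested genes of their list of heavy chain RNA processing and secretion had a median of -0.32, with Cstf2 at -0.67 (11.6 to 18.6 TPM in Myc VD and 19.0 to 26.7 TPM in Myc WT, also without overlap, adjusted p = 0.222, limma), Ell2 and Txndc5 at -0.32, Xbp1 at -0.24 and Zfp318 at 0.66. Both are also on the plasma cell list, whose 7 tested genes had a median of -0.48, with none called. All 7 were below 0, as were 73.7% of all genes. Summed TPM of its 9 genes, Jchain and Mzb1 included, were 222 to 399 in Myc VD and 480 to 711 in Myc WT LZ libraries, without overlap.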
